A study of Mus musculus with 54 samples.

Results

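Sfmbt2 is a Polycomb-group gene on mouse chromosome 2 whose long intron carries a tandem array of microRNA hairpins of the mir-669, mir-466, mir-467 and mir-297 families. The members described here are the rows of a small RNA table that carry one of these family names without a suffix and stand above 0 in at least 2 of 30 labelled libraries. The rule found 22 members among 2602 rows. Of 38 rows with such names, 10 stood above 0 in 1 library and 6 in none. By family, 19 members were mir-669 and 3 were mir-467, and no row of mir-466 or mir-297 reached the rule.

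The study measured RNA of the mouse small intestine around miR-375, as its title states. Small RNA came from crypts and villi (4 libraries each), from cells sorted as Lgr5-High (2) or Cd24-Low (4), and from cells sorted by a Sox9-EGFP reporter. The reporter groups were Sox9-EGFP Low cells of chow-fed, germ-free and conventionalized mice and Sox9-EGFP Negative cells of the chow-fed mice (4 each). The mRNA of Sox9-EGFP Low cells was measured in 16 libraries, 4 for each of the 3 states above and 4 of mice on a high fat diet. Single cells came from 2 wild-type and 2 miR-375 knockout samples of mice 12 months old. These bulk libraries are from C57BL/6J mice with no mutant genotype in their labels, and the strain of the single-cell mice is labelled C57BL6/2J. Sox9-EGFP is a fluorescent protein under the control of Sox9 sequences, and the level of its signal separates cells of the crypt. Conventionalized mice were born germ-free and later colonized with a normal microbiota. Nothing in the labels says whether the Lgr5-High, Cd24-Low, crypt and villus libraries are each from 1 mouse, so p-values measure the spread between these samples. The titles of the Lgr5-High libraries name Lgr5, whereas their cell type label names Lgr4. The third chow mouse has a high fat diet in its small RNA column names and chow in its labels, and the labels were followed.

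MicroRNAs are cut from hairpins by the nuclease Drosha and then by Dicer, and the strand that is kept guides an Argonaute protein to messenger RNAs. In the mouse, Sfmbt2 and its intronic microRNAs are best known from the placenta, where the paternal copy is the active one. The array is particular to rodents, and many of its hairpins are copies of each other.

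In the GRCm38 annotation Sfmbt2 spans chr2:10370510-10595253 on the plus strand, and the intron with the microRNAs spans chr2:10461473-10523944, or 62472 bp. Of 7 annotated transcripts, only Sfmbt2-201 and Sfmbt2-205 cover this intron, which is intron 10 in the one and intron 11 in the other. The annotation holds 71 microRNA genes of these families in the intron, all on the strand of Sfmbt2, and 10 elsewhere. Those in the intron are 29 Mir669, 23 Mir466, 14 Mir467 and 5 Mir297 genes. All 22 members map to this intron, between 6.87 and 52.8 kb from its first base, and all 22 are reads of the 5p arm of their hairpin. None of the 22 had a mature sequence in the RefSeq table used for sequences.

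The 2 transcripts that cover the intron start 14 bases apart, at positions 10372436 and 10372450, and the sequence before the first of these is shown because both begin there. RefSeq (GRCm38.p6) gives these 250 bases upstream at chr2:10372186-10372435, plus strand, 5′ to 3′, with each GGGCGG (the GC box) in capitals:

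Sfmbt2 upstream window: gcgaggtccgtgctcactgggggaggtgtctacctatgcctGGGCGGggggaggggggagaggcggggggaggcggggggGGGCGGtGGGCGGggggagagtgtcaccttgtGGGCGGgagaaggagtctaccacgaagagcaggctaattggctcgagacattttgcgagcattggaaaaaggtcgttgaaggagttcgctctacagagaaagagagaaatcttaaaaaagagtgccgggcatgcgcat

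GGGCGG, searched on both strands, occurs 4 times in this window without overlap, and 32.7% of the 32851 RefSeq windows of this length hold at least 1. The window holds 15 CG dinucleotides, and 27.3% of windows hold as many or more. CCAAT, on either strand, occurs 2 times, against 33.8% of windows with a match. TATAAA has no match on either strand, and 12.4% of windows have one.

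The members were dominated by mir-669c-5p, the 5p product of Mir669c (chr2:10509296-10509404). Its mean over the 30 libraries was 68.0 RPMMM, the authors' normalized unit, in which all libraries are scaled to nearly the same total. The next members were mir-669l-5p at 4.70, mir-467c-5p at 3.37 and mir-467e-5p at 1.56 RPMMM. In the libraries that listed any member, mir-669c-5p made up 46.03% to 100% of the members' sum. The lowest share was in the third Cd24-Low library, where mir-669c-5p itself was at 3.07 RPMMM.

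**Figure D1:**
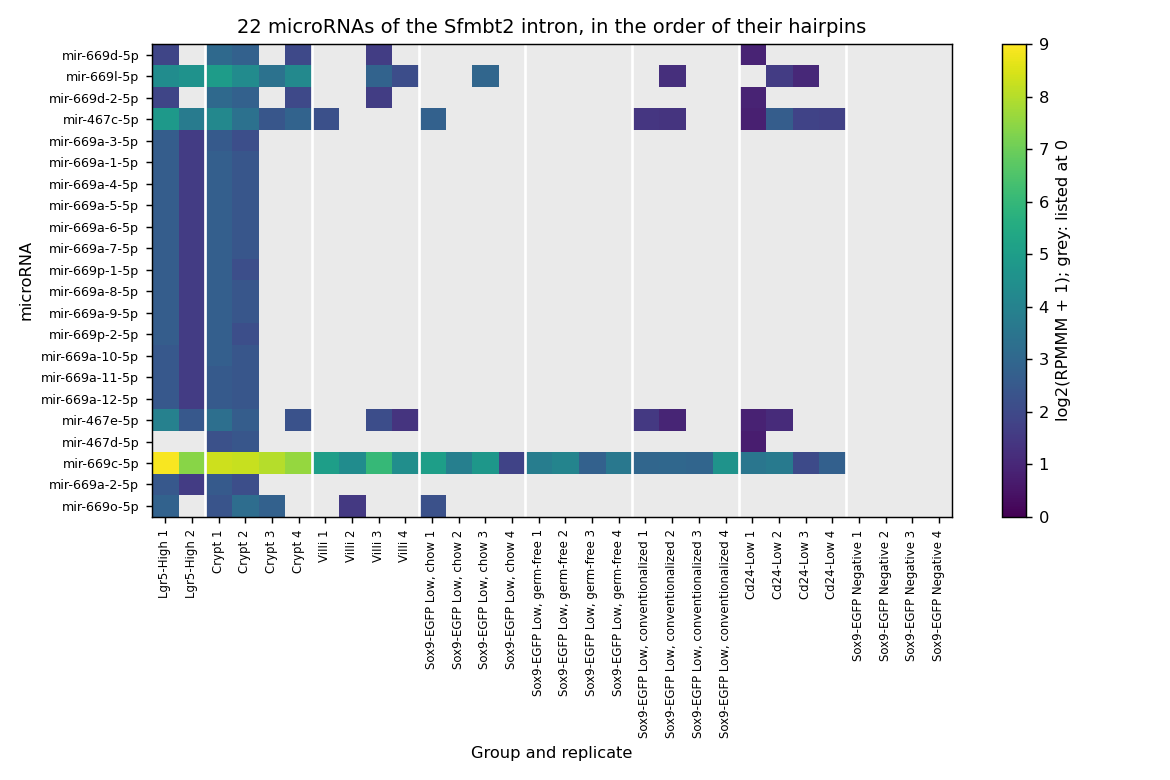
Level of the 22 members, as log2(RPMMM + 1), in the 30 small RNA libraries, with members in the order of their hairpins along the intron and libraries by group; grey cells are listed at 0. The row of mir-669c-5p is filled in all 26 libraries outside the Sox9-EGFP Negative group, and the block of mir-669a and mir-669p copies is filled only in 2 Lgr5-High and 2 crypt libraries.

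The level of mir-669c-5p was highest in Lgr5-High cells and in crypts. The Lgr5-High libraries held 477 and 170 RPMMM. The crypt libraries held 320, 299, 253 and 188 RPMMM, within the range of the Lgr5-High pair. The villi held 31.7, 19.8, 64.1 and 20.9 RPMMM, all below every crypt library.

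Sox9-EGFP Low cells held less. In chow-fed mice the values were 32.3, 13.8, 26.4 and 2.54 RPMMM, a range that overlaps that of the villi. In germ-free mice mir-669c-5p stood at 13.0, 15.7, 5.87 and 11.0 RPMMM. In conventionalized mice the values were 6.89, 7.11, 6.68 and 23.4 RPMMM, with 1 library well above the other 3. Cd24-Low cells gave 10.7, 12.0, 3.07 and 5.85 RPMMM. All 4 Sox9-EGFP Negative libraries listed mir-669c-5p, and every other member, at 0.

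By group mean the order was Lgr5-High (323 ± 217 RPMMM, SD, n = 2), crypts (265 ± 58.3, n = 4), villi (34.1 ± 20.7, n = 4) and Sox9-EGFP Low cells of chow-fed mice (18.7 ± 13.3, n = 4). Germ-free Sox9-EGFP Low cells (11.4 ± 4.15, n = 4), conventionalized ones (11.0 ± 8.23, n = 4) and Cd24-Low cells (7.90 ± 4.16, n = 4) followed. In this order the ranges of neighbouring groups overlapped except between crypts and villi and at the Negative group. In such bulk libraries, fewer cells of a type and less RNA per cell cannot be told apart.

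**Figure D2:**
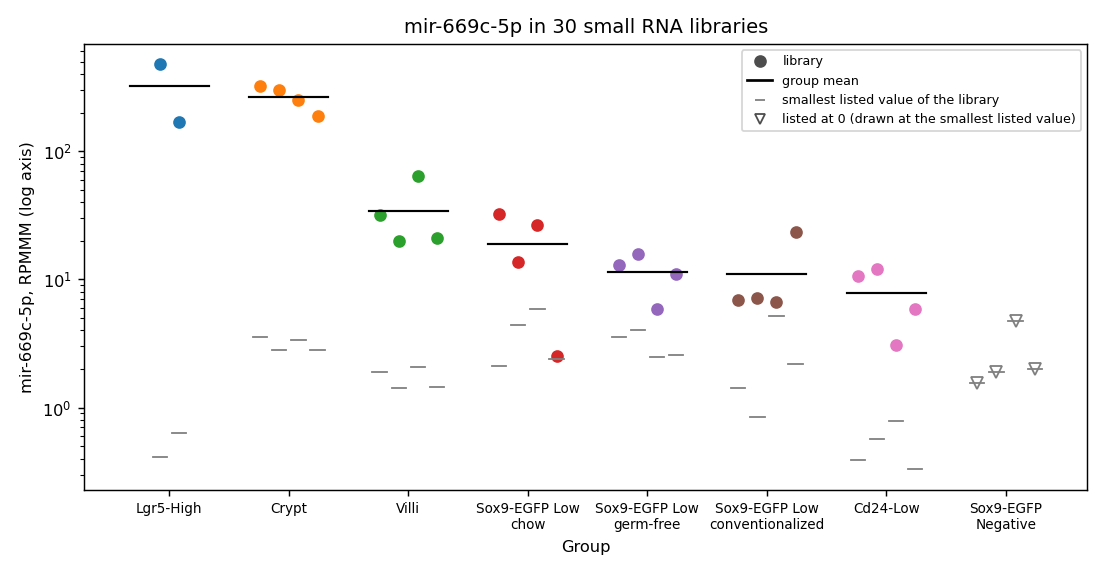
mir-669c-5p in RPMMM, on a log axis, for each of the 30 libraries (circles) with the group mean (black line) and the smallest listed value of each library (grey tick); open triangles mark libraries that list it at 0. The 4 crypt libraries, at 188 to 320 RPMMM, lie above the 4 villus libraries, at 19.8 to 64.1 RPMMM.

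A listed 0 is not an absence. The smallest value above 0 ranged from 0.33 to 5.92 RPMMM between libraries, and in 26 libraries the spacing of the values allowed an estimate of the reads behind them. The search was limited to spacings that put the smallest listed value near 20 reads, so that number was set and not found. Under this limit the libraries held 3488961 to 36222386 reads, and the smallest listed value stood for 20.03 to 21.98 reads in each. A different number of reads at the smallest value would change all these estimates. In these libraries a member at 0 may thus have had some reads, up to about 20 under this limit. The smallest listed values of the Negative libraries were 1.57 to 4.72 RPMMM, below the mir-669c-5p value of 3 of the 4 Sox9-EGFP Low libraries of chow-fed mice. The estimated reads of mir-669c-5p were 1366 to 2237 in crypts, 284 to 645 in villi and 22 to 318 in Sox9-EGFP Low cells of chow-fed mice, and the lowest of these is close to the smallest number of reads the table lists. The Lgr5-High pair and 2 Cd24-Low libraries gave no such estimate.

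Libraries with similar smallest listed values differed in how many members they listed. Lgr5-High libraries listed 18 and 21 members at a smallest listed value of 0.41 to 0.63 RPMMM, and Cd24-Low libraries listed 2 to 6 at 0.33 to 0.78 RPMMM. Crypt libraries listed 4 to 22 members at 2.8 to 3.57 RPMMM. Villi listed 2 to 5, chow Sox9-EGFP Low cells 1 to 3, conventionalized ones 1 to 4 and germ-free ones only mir-669c-5p.

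**Figure D3:**
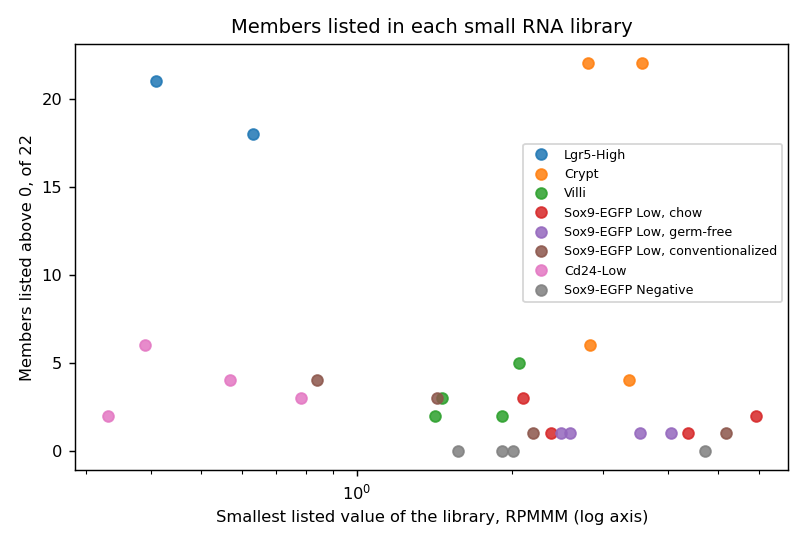
Members listed above 0, of 22, against the smallest listed value of the library in RPMMM (log axis), 1 point per library and 1 colour per group. Lgr5-High and Cd24-Low libraries share the low end of the axis and differ in the members they list, at 18 to 21 against 2 to 6.

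mir-669l-5p, 7.498 kb into the intron, was at 19.99 and 23.1 RPMMM in Lgr5-High cells and at 30.8, 19.2, 9.40 and 17.7 RPMMM in crypts. It was listed in 2 of 4 villus libraries, at 6.27 and 3.34 RPMMM, and in 2 of 4 Cd24-Low libraries, at 2.04 and 1.05 RPMMM. In Sox9-EGFP Low cells it appeared in 1 chow library at 6.88 RPMMM and 1 conventionalized library at 1.32 RPMMM. Lgr5-High and crypt libraries thus all lay above all others for this member.

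mir-467c-5p, 12.5 kb into the intron, was at 27.9 and 12.3 RPMMM in Lgr5-High cells and at 17.4, 9.35, 4.27 and 6.34 RPMMM in crypts. It was listed in 1 villus library at 3.62 RPMMM and in all 4 Cd24-Low libraries, at 0.72, 5.30, 2.55 and 2.33 RPMMM. In Sox9-EGFP Low cells it was listed in 1 chow library at 5.89 RPMMM and in 2 conventionalized libraries at 1.69 and 1.57 RPMMM. The Cd24-Low range and the chow library both reached into the range of the crypts. mir-467e-5p, 44.2 kb into the intron, was at 14.5 and 4.56 RPMMM in Lgr5-High cells and at 8.85, 5.34 and 3.86 RPMMM in 3 of the 4 crypt libraries, with the other at 0. It was listed in 2 villus libraries at 3.38 and 1.53 RPMMM, 2 Cd24-Low libraries at 0.83 and 1.16 RPMMM and 2 conventionalized libraries at 1.83 and 0.91 RPMMM. Crypts and villi overlapped for mir-467e-5p, and it was not called between them with no filter (limma adjusted p = 0.347). The third mir-467 member, mir-467d-5p, was listed in 2 crypt libraries at 3.74 and 4.27 RPMMM and in 1 Cd24-Low library at 0.64 RPMMM.

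mir-669o-5p, the member farthest into the intron at 52.8 kb, was listed in 6 libraries: 3 of crypts at 4.08, 8.28 and 5.91 RPMMM, and 1 each of Lgr5-High, chow Sox9-EGFP Low and villi at 6.14, 3.66 and 1.82 RPMMM. mir-669d-5p and mir-669d-2-5p had the same value in every library, from 0.88 to 7.37 RPMMM where listed: 7.37, 5.99 and 2.97 in crypts, 2.72 in Lgr5-High, 2.09 in villi and 0.88 in Cd24-Low cells. Their values cannot be assigned to 1 of the hairpins, and no source used here says whether shared reads were divided between copies or counted for each.

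The remaining 14 members are the copies mir-669a-1 to mir-669a-12 and mir-669p-1 and mir-669p-2, whose hairpins lie in a regular row. Of the copies, 13 lie between 13.0 and 42.3 kb from the intron's first base and mir-669a-2 lies at 48.7 kb, next to mir-669c. Of the 13 gaps between successive copies, 12 measured 2000 to 3000 bp, with a median of 2452 bp over all 13. All 14 were listed in both Lgr5-High libraries and in crypt libraries 1 and 2, and in no other library. Within a library their values were nearly the same. They ranged from 4.88 to 5.66 RPMMM in crypt 1, 3.53 to 4.25 in crypt 2, 4.54 to 5.32 in Lgr5-High 1 and 2.01 to 2.06 in Lgr5-High 2. They are therefore not 14 separate observations, and the 22 members show 13 distinct sets of values.

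**Figure D4:**
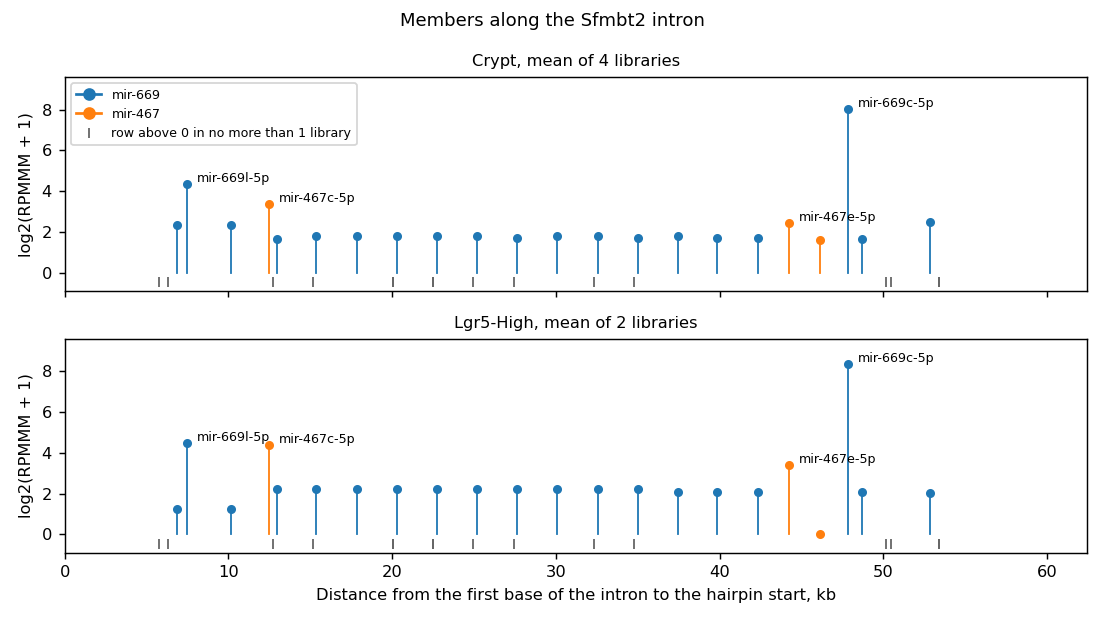
Mean level of each member, as log2(RPMMM + 1), at the distance of its hairpin from the first base of the Sfmbt2 intron in kb, for 4 crypt and 2 Lgr5-High libraries; grey ticks mark table rows above 0 in no more than 1 library. mir-669c-5p stands above its neighbours on both sides in both groups, and the 13 copies between 13.0 and 42.3 kb form a level row.

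The summed members were 622 and 238 RPMMM in Lgr5-High libraries and 222 to 476 RPMMM in crypts. They reached 21.7 to 78.0 RPMMM in villi, 2.54 to 41.9 in chow Sox9-EGFP Low cells, 5.87 to 15.7 in germ-free, 6.68 to 23.4 in conventionalized and 6.67 to 20.5 in Cd24-Low cells. Without mir-669c-5p the sums were 145.3 and 68.6 RPMMM in Lgr5-High libraries, 19.6 to 156 in crypts and 1.82 to 13.8 in villi. The ranges of crypts and villi did not overlap with or without mir-669c-5p.

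Crypts and villi were compared to ask which members differ along the axis from the proliferating base to the differentiated folds of the epithelium. mir-669c-5p was 265 ± 58.3 RPMMM in crypts and 34.1 ± 20.7 RPMMM in villi (SD, n = 4 each), a rise of 3.06 on the scale log2(RPMMM + 1) (SE 0.36, limma adjusted p = 0.000318). mir-669l-5p rose by 2.99 (SE 0.70, limma adjusted p = 0.00786). The 2 members were the only ones to pass the filter of a mean of 10 RPMMM, and both were called higher, against 33% of the 457 rows tested, with 41.4% called in either direction. With no filter, 3 of 22 members were called higher, mir-467c-5p (limma adjusted p = 0.0161) beside these, against 11.3% of 1063 rows higher and 16.3% in either direction. The 14 mir-669a and mir-669p copies, which nearly repeat each other's values, and mir-467d-5p were at 0 in all villus libraries. Only a call of higher was thus possible for them, and the count is a description only. All 8 libraries carry lane 4 in their column names. The median of all tested rows was itself 0.42 higher in crypts, and relative to it mir-669c-5p was 2.64 higher, or 2.65 with median-of-ratios scaling. Under that scaling the split of all calls moved from 151 higher and 38 lower to 59 higher and 91 lower. mir-669l-5p passed the filter through its level in crypts, and it fell under the filter and was not tested without crypt 1, without crypt 2, without crypt 4 or with median-of-ratios scaling.

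Crypts and villi are dissected tissue, and their markers of other cells differed. Summed over 10 rows each, leukocyte microRNAs were at 2400 to 5472 RPMMM in crypts and 1100 to 1664 in villi. Mesenchymal microRNAs were at 13829 to 26429 and 5873 to 52515 RPMMM, and 5 red cell rows summed to 775 to 1275 and 117 to 588 RPMMM. Their part in the difference was not tested. Of the defining rows, mir-142-3p, mir-223-5p, mir-144-3p, mir-144-5p and mir-451 were at 0 in all 4 crypt libraries, while mir-142-5p and mir-143-3p were above 0 in all 4. The red cell sum in crypts thus came from mir-486-3p and mir-486-5p alone.

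Lgr5-High cells, sorted for a receptor that marks intestinal stem cells, were compared with Cd24-Low cells. mir-669c-5p was 323 ± 217 RPMMM (SD, n = 2) against 7.90 ± 4.16 RPMMM (n = 4), a rise of 5.15 on the log2 scale (SE 0.63, limma adjusted p = 0.00159). Relative to the median of all rows it was 5.30 higher. It was the only member to pass the filter, and 10.8% of the 444 rows tested were called higher and 27.9% in either direction. It passed through its level in Lgr5-High cells, since the Cd24-Low mean is under the filter. With no filter on low values, 18 of 22 members were called higher, while 3.39% of 1861 rows were called higher and 9.99% in either direction. This count is a description only. Of the 18, 14 are the copies that repeat each other's values, and they became members through the Lgr5-High and crypt libraries, the only ones that list them, a condition the other rows did not have to meet. mir-669l-5p (adjusted p = 0.00376), mir-467c-5p (0.0295) and mir-467e-5p (0.0309) were the others beside mir-669c-5p by limma with no filter.

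Mesenchymal microRNAs summed to 7.08 and 7.48 RPMMM in the Lgr5-High libraries and to 13829 or more in crypts. The mir-669c-5p values of these 2 groups overlapped. The part of mesenchymal cells in these values was not tested. The rows mir-143-5p, mir-145-5p, mir-145-3p and mir-214-3p were at 0 in both Lgr5-High libraries. The full list of 10 mesenchymal rows summed to 194 to 636 RPMMM in Cd24-Low cells. Leukocyte microRNAs were at 464 to 802 RPMMM in Lgr5-High and 429 to 3321 in Cd24-Low libraries, and red cell rows at 24.98 to 28.8 and 15.4 to 118 RPMMM. The Lgr5-High column names carry lane 8 and those of Cd24-Low none, so lane and group cannot be told apart.

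Sox9-EGFP Low and Negative cells of the same 4 mice were compared at the filter of 10 RPMMM, which no member passed, since mir-669c-5p had a mean of 9.37 RPMMM over the 8 libraries. Of the 399 rows tested, 57.6% were called, 45.1% higher in Low cells. With no filter, 4 members were tested and mir-669c-5p alone was called higher in Low cells (limma adjusted p = 0.00194), against 25.6% of 1018 rows higher and 33% in either direction, and with the mouse as a block the adjusted p was 0.0035. It was above 0 in 4 of 4 Low libraries and listed at 0 in 4 of 4 Negative ones, so no fold is given. Every member was at 0 in all Negative libraries, so the 4 tested entered this fit through Low cells alone. Only a call of higher in Low cells was possible for them, and the call is a description only. Low libraries carry lane 1 and Negative libraries lanes 4 and 5 in their column names, and lane and group cannot be told apart. Without filter, 336 rows were called, 261 of them higher. Median-of-ratios scaling moved the split of calls at the filter from 180 higher and 50 lower to 103 each way.

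Germ-free and conventionalized mice were compared to ask whether the microbiota changes the members in Sox9-EGFP Low cells. The only member tested, mir-669c-5p, was 11.0 ± 8.23 RPMMM with the microbiota and 11.4 ± 4.15 RPMMM without it (SD, n = 4 each). The difference was 0.17 on the log2 scale (95% interval -0.91 to 1.26, limma adjusted p = 0.783), and 38.5% of 465 rows were called. The median of all rows was -0.16, relative to which mir-669c-5p was 0.33 higher. Median-of-ratios scaling moved the split of calls from 63 higher and 116 lower to 92 and 97. No member was called at this filter or with none, where 11.5% of 1222 rows were called, and none had an unadjusted p under 0.05 by limma. With no filter only 4 members were tested. Of these, mir-467c-5p, mir-467e-5p and mir-669l-5p were at 0 in all germ-free libraries, so only mir-669c-5p was listed in both groups. Mesenchymal markers were lower in germ-free libraries, at 30.02 to 79.1 against 141 to 445 RPMMM, and their part was not tested. In the mRNA libraries of the 2 groups stem and cycling markers also differed, as given with Sfmbt2 mRNA. Lane 1 holds 1 library of each group, at 13.0 RPMMM (germ-free) and 6.68 RPMMM (conventionalized), and the other lanes hold 1 group each, so no lane gives a test.

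Conventionalized mice were also set against the chow-fed mice. mir-669c-5p was 11.0 ± 8.23 against 18.7 ± 13.3 RPMMM (SD, n = 4 each), a difference of -0.50 on the log2 scale (95% interval -2.14 to 1.15, limma adjusted p = 0.63). Of the 459 rows, 6.75% were called, and 4.35% of 1240 with no filter. The median of all rows was 0.34, relative to which mir-669c-5p was -0.83. Median-of-ratios scaling moved the split of calls from 17 higher and 14 lower to 8 and 23. No member had an unadjusted p under 0.05 by limma, with the filter or without it. With no filter only 5 members were tested. Of these, mir-467e-5p was at 0 in all chow libraries and mir-669o-5p in all conventionalized ones. This comparison shares the conventionalized libraries with the one before. Leaving out single libraries moved the difference between -1.18 and -0.11.

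The microRNAs most alike in pattern to the members, by Pearson correlation of log2(RPMMM + 1) with the summed members over the 30 libraries and among 163 other rows with a mean of at least 50 RPMMM, were mir-152-3p (r = 0.875), mir-574-3p (0.872), mir-484 (0.847), let-7a-2-5p (0.840) and let-7d-3p (0.840). By group mean all 5 were lowest in Negative cells. Low values there were common. The median of all tested rows was 0.87 higher on the log2 scale in chow Sox9-EGFP Low than in Negative cells, and 45.1% of 399 rows were called higher. The 30 libraries share group, depth and library preparation, so the values are descriptive. mir-152-3p averaged 469 RPMMM in crypts, 207 in villi and 9.57 in Negative cells, so it fell less from crypt to villus than mir-669c-5p did by these means, a difference that was not tested.

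Sfmbt2 mRNA, counted for the host gene as a whole, was low and varied between mice. Of its annotated transcripts only Sfmbt2-201 and Sfmbt2-205 cover the microRNA intron, and these counts do not separate transcripts. In Sox9-EGFP Low cells of chow-fed mice it had 7.84, 6.45, 31.2 and 24.7 normalized counts, the authors' unit in the mRNA table. In mice on a high fat diet it had 15.96, 15.96, 13.1 and 16.2. In conventionalized mice it had 20.2, 85.6, 107 and 11.1, and in germ-free mice 33.2, 69.9, 182.1 and 28.3 normalized counts. The 4 highest of the 16 libraries were 2 of conventionalized and 2 of germ-free mice. All 4 groups overlapped with at least 1 other, and the high fat group had the smallest spread. The 16 libraries sum to between 10680267 and 19117886 normalized counts.

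The germ-free mean was 78.4 ± 71.6 normalized counts of Sfmbt2 and the conventionalized mean 55.9 ± 47.4 (SD, n = 4 each), a difference of 0.61 on the scale log2(normalized count + 1) (95% interval -1.14 to 2.36, limma adjusted p = 0.655). The median of all genes was 0.11 higher in germ-free mice, relative to which Sfmbt2 was 0.50 higher. Against chow-fed mice (17.5 ± 12.3) the conventionalized mice differed by 1.36 (95% interval -0.38 to 3.10, limma adjusted p = 0.534). High fat diet (15.3 ± 1.46) and chow differed by 0.09 (95% interval -1.11 to 1.29, limma adjusted p = 0.943). The third chow mouse, whose small RNA columns name a high fat diet, had the highest Sfmbt2 value of the chow group. Without it the high fat difference was 0.45 (limma adjusted p = 0.682). In these 3 comparisons 2.24%, 0.0948% and 0.822% of genes were called. Leaving out single libraries moved the germ-free difference between 0.04 and 1.10 and the high fat difference between -0.25 and 0.45, none of them called.

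Summed stromal and endothelial markers were 1067 to 2046 normalized counts in germ-free and 347 to 606 in conventionalized libraries, and 1 of 6 tested, Pecam1, was called higher. Among chow-fed mice the pair with more Sfmbt2, at 31.2 and 24.7, had stromal sums of 1993 and 1229, and the other pair 543 and 345 normalized counts. The 2 conventionalized mice highest in Sfmbt2 had stromal sums of 429 and 606. Cycling markers summed to 3171 to 14890 normalized counts in germ-free and 20475 to 25756 in conventionalized libraries, with 2 of 8 called lower. Stem cell markers summed to 11321 to 66429 normalized counts in germ-free and 56622 to 117608 in conventionalized libraries. None of the 8 stem genes was called by limma, but all 8 had lower means in germ-free mice at an unadjusted p under 0.05, with a median difference of -1.32. Lgr5 was 861 ± 459 in germ-free and 3299 ± 1747 normalized counts in conventionalized libraries (SD, n = 4 each; limma adjusted p = 0.0815). The part of these cells in the values of Sfmbt2 was not tested.

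**Figure D5:**
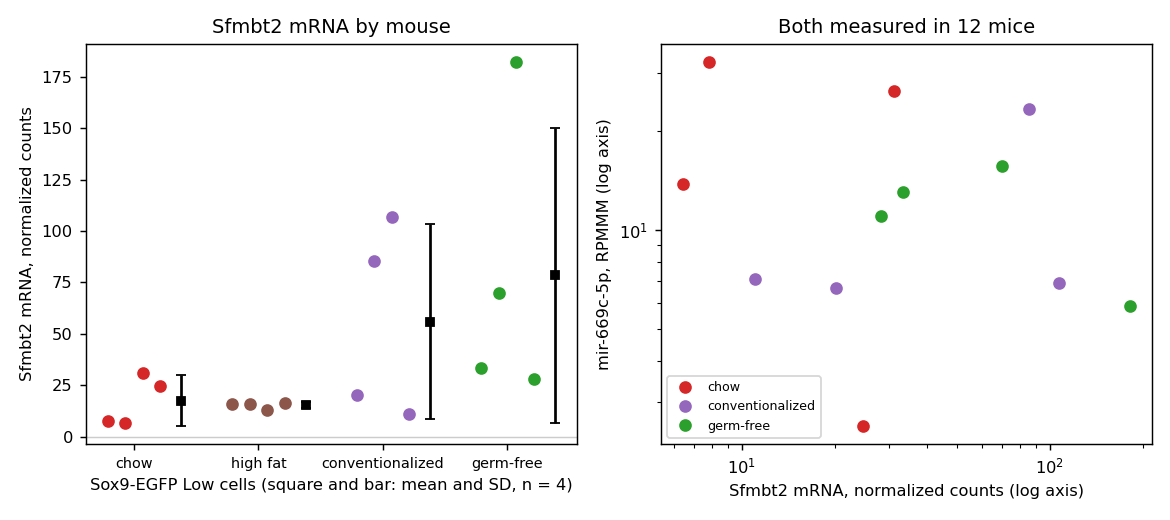
Left, Sfmbt2 mRNA in normalized counts for 16 mice in 4 groups, with squares and bars for mean and SD (n = 4); right, mir-669c-5p in RPMMM against Sfmbt2 mRNA in normalized counts, both on log axes, for the 12 mice with both libraries. The highest Sfmbt2 value, 182.1, is in a germ-free mouse with 5.87 RPMMM of mir-669c-5p, and the points show no single direction.

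The host gene and its leading microRNA were measured in the same 12 mice, matched by animal number. The Sfmbt2 counts do not separate transcripts that cover the intron from those that end before it. They may therefore not follow the transcripts that carry the hairpins. Over these mice mir-669c-5p and Sfmbt2 had Pearson r = -0.18 (permutation p = 0.577) and Spearman rho = -0.17 (permutation p = 0.59), both two-sided with 100000 resamples on log2(value + 1). Without the 2 mice farthest from the median of mir-669c-5p, r was -0.07 (n = 10, permutation p = 0.843). With each group's mean subtracted, r was -0.09 (permutation p = 0.78). No other member was tested against Sfmbt2. The p-values, from both measures and several settings, were not adjusted. The germ-free mouse with 182.1 normalized counts of Sfmbt2 had 5.87 RPMMM of mir-669c-5p, and the chow mouse with 7.84 normalized counts had 32.3 RPMMM.

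Genes that act with the members or the host were read from the same mRNA fits. Of 13 microRNA processing genes, all tested, none was called in any of the 3 comparisons by limma. At an unadjusted p under 0.05 there were 2, 1 and 1. These were Ago4, an Argonaute, in all 3, and Tarbp2, a partner of Dicer, in germ-free against conventionalized mice. Ago4 was 114 in germ-free, 38.7 in conventionalized, 84.7 in chow and 31.5 normalized counts in high fat mice, with adjusted p of 0.171, 0.397 and 0.109 by limma. In the same order of germ-free and conventionalized, Drosha was 392 ± 119 and 491 ± 78.7 normalized counts, and Dicer1 was 233 ± 45.8 and 276 ± 41.8 (SD, n = 4). The median differences of the list were -0.13, -0.03 and 0.07, beside 0.11, 0.04 and 0.05 over all genes tested.

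Of 19 Polycomb partners and relatives of Sfmbt2, 19, 18 and 17 were tested in germ-free against conventionalized, conventionalized against chow and high fat against chow. None was called by limma. At an unadjusted p under 0.05 there were 0, 2 and 3, namely L3mbtl2 and Phc3 in the comparison with chow, and Scml2, Phc2 and Eed under high fat diet. Sfmbt1, the close relative of the host gene, was 184 ± 47.7 in germ-free, 158 ± 29.2 in conventionalized and 161 ± 50.7 normalized counts in chow-fed mice (SD, n = 4). Of 7 protein-coding genes within 500 kb of Sfmbt2, 4 were tested and none was called by limma. Of these 4 neighbours, Taf3 (germ-free against conventionalized) and Atp5c1 (high fat against chow) had an unadjusted p under 0.05, with adjusted p of 0.207 and 0.0993.

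Single cells held almost no Sfmbt2. Of 9156 cells kept, 19 had a UMI of Sfmbt2, 1 each. The wild-type samples had 0 UMIs in 1197 cells and 10 in 3363 cells, and the miR-375 knockout samples 1 in 1241 and 8 in 3355 cells. The 0 of 1197 cells allows a share of up to 0.251% of cells with a UMI. As CPM (UMIs scaled to the sum of all UMIs), the pooled values were 0.117 in wild type (95% exact Poisson interval 0.0563 to 0.216) and 0.112 in knockout (0.0512 to 0.213), intervals that cover counting error only. The log2 ratio of knockout to wild type was -0.07 (95% exact interval -1.54 to 1.39). Sfmbt2 did not pass edgeR's filter on low counts, so no test is given at that filter. Median UMIs per cell ranged from 6910 to 16325 between samples.

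The 19 cells with a UMI were read against markers of cell types. At least 3 of the enterocyte markers were detected in 15 of the 19, and in 78.7% of all cells. At least 3 T lymphocyte markers were detected in 6 of the 19 (26.1% of all cells) and at least 3 stem cell markers in 5 of the 19 (18.99% of all cells). The T lymphocyte markers were in 5 of the 10 cells of wild type set 2 and 0 of the 8 cells of knockout set 2, where 42.4% and 24.3% of all cells had them. Enteroendocrine, myeloid, B lymphocyte and stromal markers gave 0 of 19, beside 2.95%, 0.568%, 2.13% and 0% of all cells. The knockout cells with a UMI were deeper than their samples, at a median of 50106 UMIs against 14059 in set 2 and 84067 against 15986 for the 1 cell of set 1. In wild type set 2 the medians were 6591 and 6910 UMIs. Free RNA can give single UMIs, and no background share was measured, so these cells are not shown to express Sfmbt2. At this depth a difference between cell types was not detectable. Cell barcodes shared between libraries numbered 0 to 3 for a pair of libraries, and doublets were not removed.

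The separate small RNA table of APC mutant and control intestine lists no member.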

How the data were processed

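The small RNA table holds values named RPMMM by the authors, treated here as RPM because each deposited column sums to nearly the same total, that of the unit. Values of the mRNA table are the authors' normalized counts (a signal, not whole reads), and how they were scaled is not stated in the labels. The single-cell matrices hold UMI counts as deposited by the authors. The submitters' processing notes name Cell Ranger, STAR, Salmon, DESeq2 and the build mm10, with no role or order. In the small RNA table, 4 columns matched no sample and were not used. In the mRNA table, 381 rows with no gene name, 0.0338% to 0.0804% of a library, were left out.

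The members, gene lists and tests were chosen with earlier results of these data known. Groups were compared with limma 3.58.1 (R 4.3.3) on log2(value + 1), using only the 2 groups compared, features with a mean of at least 10, and Benjamini-Hochberg adjustment over all features tested, two-sided, with calls at an adjusted p under 0.05. Changes on this scale understate those of low features. Named in full were the 10 members with the highest mean and, in each comparison, the called members whose groups do not overlap. Cells with fewer than 500 genes, fewer than 1000 UMIs or 25% or more mitochondrial UMIs were left out, and UMI counts were summed per sample for edgeR 4.0.16 and, as an alternative, DESeq2 1.42.0. With so few UMIs, Sfmbt2 was not split by cell cluster. On data simulated for crypts against villi, limma recovered 76.1% of 2-fold and 100% of 4-fold changes among 455 features. For germ-free against conventionalized mRNA it recovered 29.4% of 2-fold and 99.1% of 4-fold changes among 19936 features. Both simulations used the same setting of spread for every feature. The shares need not hold for the members or Sfmbt2, whose own spread was not simulated. Positions come from GENCODE annotation of GRCm38 (mm10). Sox9-EGFP Low and Negative libraries with 1 replicate number come from the same mouse by animal number, although their deviations correlated at -0.15 to 0.18 over 399 features.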

Additional observations from a re-analysis of the deposited data

Results flagged for a closer look

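Within groups of 4 libraries, 12 of 42 sets of values had 1 library far from the other 3. The sets were those of the 10 leading members, the sum of all 22 members and Sfmbt2 mRNA. They are not independent, since some members, such as mir-669d-5p and mir-669d-2-5p, had the same values. The criterion was a gap of over 0.829 of the group's range, which chance alone flags in about 1 in 20 groups. In 10 of the 12 the other 3 libraries were listed at 0, so the flag marks a member that 1 library listed. These were mir-467c-5p (3.62 RPMMM), mir-669o-5p (1.82), mir-669d-5p (2.09) and mir-669d-2-5p (2.09) in villi, mir-669l-5p (6.88), mir-467c-5p (5.89) and mir-669o-5p (3.66) in chow Sox9-EGFP Low cells, mir-669l-5p (1.32) in conventionalized mice, and mir-669d-5p and mir-669d-2-5p (0.88 each) in Cd24-Low cells. In conventionalized mice mir-669c-5p was 23.4 RPMMM in 1 library and 6.68 to 7.11 in the other 3. Under high fat diet Sfmbt2 mRNA was 13.1 normalized counts in 1 library and 15.96 to 16.2 in the others.

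Rows of the same names that carry a suffix, the meaning of which no source used here states, were not members. They were above 0 in 15 of 30 libraries and summed to 71.6 RPMMM in Lgr5-High 1, while the other libraries held at most 26.7 and the Negative libraries 0.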

How the results depend on the processing

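Of the results on the members, those of germ-free against conventionalized and conventionalized against chow kept a count of 0 called under all alternatives run. At a mean of at least 50 RPMMM no member was tested in either comparison, so a count of 0 was certain there. The same holds for the first comparison without conventionalized replicate 4. Between Sox9-EGFP Low and Negative cells the count of called members was 0 at the filter and 1 (mir-669c-5p) with no filter, with or without the mouse as replicate block, median-of-ratios scaling or leaving out mouse 3; these 3 combinations were chosen after seeing the data. It was 0 to 1 without single libraries, and 1 without chow Low replicate 4 or any 1 Negative library, as the mean then passed the filter. In each of these fits that tested mir-669c-5p it entered through Low cells alone, so only a call of higher was possible. Between crypts and villi it was 2, and 1 at a mean of at least 50 RPMMM or with median-of-ratios scaling, where mir-669l-5p falls under the filter, and 1 to 2 without single libraries. For Lgr5-High against Cd24-Low it was 1, and 18 with no filter, 14 of them copies with shared values. mir-669c-5p kept its direction and call in crypts against villi (2.86 to 3.41 without single libraries). In Lgr5-High against Cd24-Low it kept its direction (4.403 to 5.89), and both ends of this range came from fits with 1 Lgr5-High library. It kept its call in the fits with both Lgr5-High libraries. Where a filter was used it passed through its level in Lgr5-High cells, a condition that favours a call of higher.

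Sfmbt2 mRNA was called in no alternative; without single libraries its log2 difference was 0.88 to 1.93 between conventionalized and chow mice. In single cells the log2 ratio was 0.17 by edgeR with no filter, 0.22 with the set as replicate block and 0.29 by DESeq2, none of them called. As a plain ratio with no test it was -1.52 to 0.29 without single samples, and no value exists without wild-type set 2. Summed members moved by less than 1 SD of their group under the alternatives run. Calls over all rows ranged from 14 to 138 around 31 between conventionalized and chow small RNA, 1 to 1672 around 453 in germ-free against conventionalized mRNA, 0 to 165 around 17 in conventionalized against chow mRNA and 0 to 2590 around 135 in high fat against chow mRNA, so the background shares are uncertain. The lowest and highest counts that came from leaving out 1 library were 14 (conventionalized 2) and 64 (conventionalized 4) in the first, 1 (germ-free 1) and 684 (germ-free 2) in the second, 0 (chow 1 or 3 or conventionalized 1, 2 or 3) and 6 (chow 4) in the third, and 2590 (chow 2) in the last, where chow 3 gave 69 and each other library 0. In germ-free against conventionalized small RNA the count of 179 fell to 117 without conventionalized replicate 2, and it was 107 at a mean of at least 50 RPMMM, a filter that also took the counts of Low against Negative from 230 to 141 and of crypts against villi from 189 to 112. Between germ-free and conventionalized mice mir-669c-5p was under the filter without conventionalized replicate 4, the library at 23.4 RPMMM.

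The replicate block changed no call of a member or of Sfmbt2. Same-numbered libraries did not all correlate above 0.1 in any comparison. Those of Low and Negative cells from the same mice did not either, so the check missed a known pairing. Where labels give no animal number, whether same-numbered libraries share a mouse is not known. Depth limits the lower members, since a member below the smallest listed value of its library may be listed at 0.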
